A study of Mus musculus with 16 samples.

Results

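The input RNA of unstimulated peritoneal macrophages (PMs) from mice without ADAP was compared with that of wild-type (WT) mice. ADAP, encoded by Fyb1, is an adapter protein of blood cells that binds SLP-76 and SKAP proteins and links immune receptors to integrin activation and the actin cytoskeleton. In PMs its partner is SKAP2. Integrins let macrophages attach and migrate, Toll-like receptors such as TLR4 sense microbial products, and the type I interferon pathway switches on antiviral genes through IRF and STAT factors. The question of this comparison is which transcripts differ between the genotypes before any bacterial stimulus.

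Of 16 libraries in the series, 4 form the comparison: the mock-treated input libraries of Adap-/- PMs (2 replicates) and of WT PMs (2 replicates). All cells were PMs drawn by thioglycolate (3%) from the peritoneal cavity of C57BL/6 mice of 6 to 8 weeks, harvested 3 days after the injection and cultured. Adap-/- mice lack the gene in every cell, not only in macrophages, so the cells also developed without ADAP. The paper describes its mice as sex-matched littermates, and also lists WT C57BL/6 mice as purchased. The origin of the WT mice sampled here is therefore not certain. The other 4 input libraries, from both genotypes after LPS at 1 µg/ml for 6 h, were used in the same fit and for one further comparison. The other 8 libraries hold RNA immunoprecipitated for N6-methyladenosine (m6A), and the input is the fragmented RNA before that step. The labels do not say whether the 2 replicates came from separate animals, so the p-values measure the spread between these samples, which may be technical.

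The deposited table gives read counts on 7069 distinct m6A peaks, and the counts of all peaks of a gene were summed. A value is therefore the part of a transcript that lies under peaks, for 4943 genes that have at least 1 peak. Genes with no peak, such as Mettl3, were not analysed here. The mock input libraries held 2121313 to 2333347 reads on peaks. Levels are given as normalized CPM (CPM, counts scaled to a common number of reads on peaks, after TMM scaling), and the test was edgeR's quasi-likelihood F test with Benjamini-Hochberg adjustment. The words "rose", "fell", "higher" and "lower" are used as calls at an adjusted p under 0.05. The 10 most abundant genes took 29.1% to 32.9% of the reads.

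The cells carried macrophage transcripts in both genotypes. The 15 genes of a macrophage marker list that were tested summed to 20607 and 21305 normalized CPM in Adap-/- and 21556 and 22668 in WT, with a median log2 fold change of 0.07 (-0.01 without WT mock replicate 2). Of these, 2 were higher and 1 was lower in Adap-/-. Cd68, a lysosomal glycoprotein of macrophages, gave 4522 and 4592 normalized CPM in Adap-/- and 5140.1 and 4664 in WT. Of 20 neutrophil markers 2 were in the table: Csf3r, the G-CSF receptor, stood at 192 and 194 against 145 and 162 (adjusted p = 0.0525). Lcn2 stood at 1.24 and 0.286 against 0 and 0.317. Igkc, the immunoglobulin kappa constant region of B cells, was lower in Adap-/-, at 18.9 and 11.7 against 29.5 and 30.4 (log2 fold change -0.98, adjusted p = 0.00646), a call that was lost without Adap-/- mock replicate 2 (adjusted p = 0.122). Of 20 B-cell, 26 T- and NK-cell and 16 dendritic-cell markers 3 each were in the table, and no eosinophil, mast-cell or platelet marker was. In bulk RNA fewer cells of a type and less RNA per cell cannot be told apart, and the part of other cells in the results below was not tested.

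Some transcripts set a single library apart from its replicate. WT mock replicate 2 had more of several genes known as targets of interferon gamma: Gbp5, a guanylate-binding GTPase, had 81.1 and 215 normalized CPM in WT replicates 1 and 2, and Irf1, a transcription factor, had 1001 and 1630.1. Adap-/- mock replicate 2 had more Saa3, an acute-phase protein of macrophages, at 248 and 510.5 in Adap-/- replicates 1 and 2. Values with and without these libraries are given where a result rests on them. Il6 and Nos2, which LPS induces strongly, were low in all 4 libraries. Clec4e and Irf7, which also had larger values after LPS, were already abundant without it, as given below. Il6 stood at 0.620 and 1.14 against 2.71 and 0.951 normalized CPM (Adap-/- against WT). Nos2, the inducible nitric oxide synthase, stood at 4.03 and 2.86 against 3.01 and 10.8, while after LPS they reached 1839 and 2206 in Adap-/- and 2036 and 1254 in WT for Il6 and 4036 and 3045 in Adap-/- and 4010.4 and 5861 in WT for Nos2.

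Fyb1 itself was examined first. Its peaks together gave 55.1 and 43.5 normalized CPM in Adap-/- and 287 and 302 in WT (log2 fold change -2.58 ± 0.13 (SE), adjusted p = 8.79e-09), so the genotypes did not overlap. The loss was uneven along the gene, which lies on chromosome 15 (GRCm39): the coding peak chr15:6609828-6610128 had 1 and 0 reads in the Adap-/- libraries and 532 and 502 in WT, and the next coding peak, chr15:6610303-6610478, had 1 and 5 against 254 and 272. Another peak annotated as coding, chr15:6614658-6649123, which the table assigns also to ENSMUSG00000089647, had 171 and 144 reads in Adap-/- and 164 and 177 in WT. Reads were nearly absent from 2 of the gene's 4 peaks, those of the most downstream peak overlapped between genotypes, and the remaining peak, chr15:6552383-6599121, had at most 5 reads in any of the 4 libraries.

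Of 4745 genes tested, 418 were higher in Adap-/- PMs (8.81%) and 401 were lower (8.45%), and the median log2 fold change over all of them was 0.01. Most differences were small. Past 2-fold there were 79 higher genes (1.66%) and 42 lower genes (0.885%), while 339 of the higher and 359 of the lower genes changed by less. With an unadjusted p under 0.05 in place of the adjusted p, 99 and 59 genes passed 2-fold (2.09% and 1.24%). Genes that share a peak are counted each, and the 418 and 401 genes rested on 387 and 362 distinct sets of peaks. In all 819 called genes both Adap-/- libraries lay on the same side of both WT libraries, as they did for 29.9% of all genes in the higher and 29.8% in the lower direction. Of the called genes, 140 higher and 114 lower ones were also called in each of the 4 fits that left out 1 mock input library. The counts moved most without Adap-/- mock replicate 2, to 160 higher and 148 lower. Without WT mock replicate 2 they were 248 and 188, without Adap-/- mock replicate 1 297 and 237, and without WT mock replicate 1 423 and 458, of which 96 and 78 were past 2-fold (78 and 20 without WT mock replicate 2, 52 and 27 without Adap-/- mock replicate 2). With scaling by total count in place of TMM, 517 genes were higher and 308 lower, so that 62.7% of the calls were higher, against 51.0%.

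**Figure D1:**
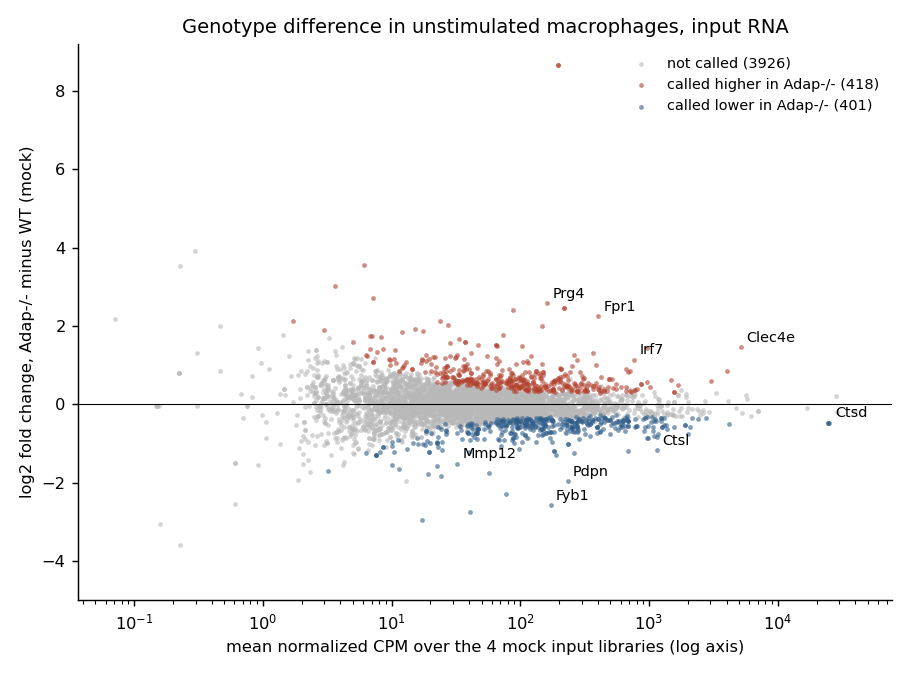
Each point is 1 of 4745 genes: its mean normalized CPM over the 4 mock input libraries (x, log axis) against its log2 fold change, Adap-/- minus WT (y). Red points are the 418 genes called higher and blue points the 401 called lower (edgeR, adjusted p under 0.05); the point at 8.67 is a peak shared by 2 genes.

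The largest difference was at a single peak on chromosome 18 that the table assigns to ENSMUSG00000059040, a retrotransposed copy of enolase 1 (enolase 1B), and to ENSMUSG00000118267. It had 632 and 2077 reads in the Adap-/- libraries and 3 and 3 in WT (195.8 and 594 against 0.904 and 0.951 normalized CPM). Such a copy is nearly identical in sequence to the active enolase gene, so the assignment of its reads is uncertain, and the fitted log2 fold change of 8.67 (7.66 without Adap-/- mock replicate 2) rests on 3 reads in each WT library. The Adap-/- libraries also differed from each other there more than at the other genes with the largest rise.

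Several of the other genes with the largest rise encode secreted or surface proteins. Prg4, which encodes lubricin, gave 183 and 367 normalized CPM in Adap-/- and 60.0 and 32.0 in WT, with all 4 of its peaks higher in Adap-/- (log2 fold change 2.58 ± 0.35 (SE), adjusted p = 0.000222; 1.98 without Adap-/- mock replicate 2). Complement factor B, which cleaves C3 in the alternative pathway, is encoded by Cfb, whose peaks are also assigned to ENSMUSG00000092511, and it gave 314 and 432 normalized CPM in Adap-/- and 78.1 and 56.7 in WT (log2 fold change 2.47 ± 0.16 (SE), adjusted p = 1.00e-07). The lowest Adap-/- library had several times the level of the highest WT library for both genes. Fpr1, the receptor for formylated bacterial peptides, stood at 599.8 and 725 normalized CPM in Adap-/- and 151 and 128 in WT (log2 fold change 2.25 ± 0.13 (SE), adjusted p = 2.14e-08), and its relative Fpr2 at 56.7 and 55.5 against 17.2 and 19.97 (log2 fold change 1.59, adjusted p = 0.000837). Schlafen 4 (ENSMUSG00000000204), a member of a family with close paralogs and therefore open to shared reads, was higher at each of its 6 peaks and gave 133 and 160.4 normalized CPM in Adap-/- and 31.6 and 23.1 in WT in sum (log2 fold change 2.42 ± 0.16 (SE), adjusted p = 1.00e-07). A lack of overlap between the genotypes was part of the rule that chose the genes with the largest rise and fall, so it gives them no support.

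Ptges, the synthase of prostaglandin E2, gave 171 and 297 normalized CPM in Adap-/- and 63.3 and 53.3 in WT (log2 fold change 2.01 ± 0.23 (SE), adjusted p = 5.36e-05). Tarm1, an activating receptor of myeloid cells, gave 25.7 and 22.3 normalized CPM in Adap-/- and 9.04 and 3.49 in WT (log2 fold change 1.91, adjusted p = 0.000241; 2.76 without WT mock replicate 1). Siglec12, a sialic-acid-binding lectin, gave 19.2 and 18.9 normalized CPM in Adap-/- and 5.12 and 5.39 in WT (log2 fold change 1.85, adjusted p = 0.000363). Of these 3 genes, Siglec12 had the closest replicates. The highest-ranked genes at low levels were Adgb, androglobin, at 9.29 and 13.2 against 1.51 and 0.317 normalized CPM, the latter from 5 reads and 1 read (log2 fold change 3.55, adjusted p = 0.000415; 4.97 and 2.87 without WT mock replicate 1 or 2), and Ltbp1, latent TGF-beta binding protein 1, at 11.2 and 13.7 against 1.81 and 1.90 (log2 fold change 2.72, adjusted p = 0.000853). ENSMUSG00000118365, on shared peaks, stood at 20.1 and 34.9 against 6.03 and 9.19.

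**Figure D2:**
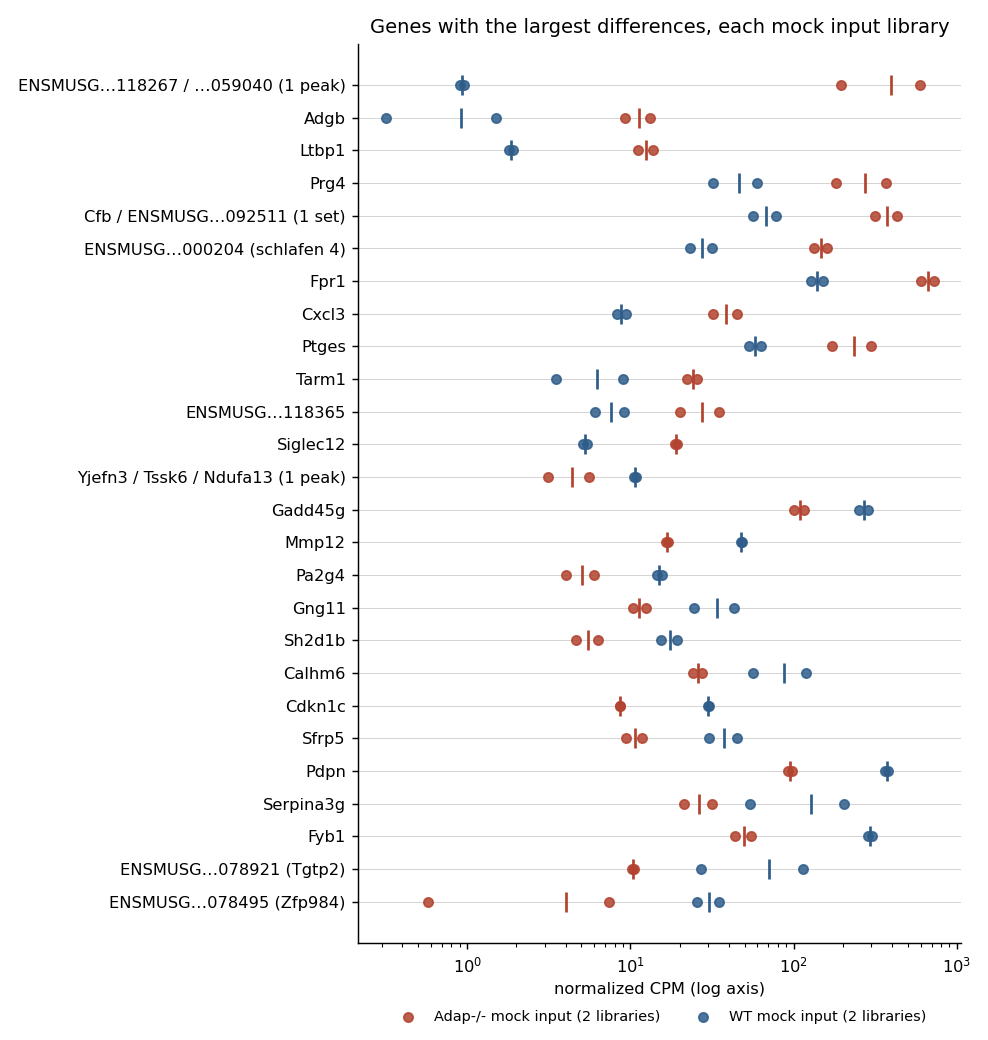
Normalized CPM (x, log axis) of 14 of the 15 higher and of the 15 lower genes with the largest log2 fold change in each mock input library, with Fyb1 and Ndufa13 (genes on the same peaks share a row). Dots are libraries, 2 per genotype, and ticks are genotype means. The Adap-/- and WT dots lie apart in every row because the rule for these genes required it, and the widest spread within a genotype is that of ENSMUSG00000078495 in Adap-/-.

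Among the genes that fell most, Pdpn stood out by its level. It encodes podoplanin, a membrane mucin that binds CLEC-2, and gave 98.2 and 92.7 normalized CPM in Adap-/- and 364 and 379 in WT, lower in Adap-/- at each of its 3 peaks (log2 fold change -1.96 ± 0.11 (SE), adjusted p = 1.83e-08). Pdpn is also a marker of fibroblasts and mesothelium. Of the other markers of that list in the table, Pdgfra stood at 54.2 and 36.03 against 32.2 and 50.7, Pdgfrb at 4.34 and 2.86 against 1.81 and 4.44 and Lrrn4 at 26.02 and 14.0 against 8.14 and 14.9, and none was called. Gadd45g, a stress-response gene, gave 116 and 101 normalized CPM in Adap-/- and 284 and 252 in WT (log2 fold change -1.30 ± 0.12 (SE), adjusted p = 5.70e-06). Mmp12, macrophage elastase, gave 16.4 and 16.9 normalized CPM in Adap-/- and 48.2 and 47.6 in WT (log2 fold change -1.52 ± 0.20 (SE), adjusted p = 0.000177). Cdkn1c, an inhibitor of cyclin-dependent kinases, gave 8.67 and 8.58 normalized CPM in Adap-/- and 29.8 and 30.1 in WT (log2 fold change -1.79, adjusted p = 0.000945). Sfrp5, a secreted Wnt antagonist, gave 11.8 and 9.44 against 44.9 and 30.4 (log2 fold change -1.83, adjusted p = 0.000434). The calls of these 5 genes held without any 1 library.

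The size of 4 further falls depended on 1 library. T cell specific GTPase 2 (ENSMUSG00000078921), an interferon-gamma target whose 3 peaks are shared with a paralog, gave 10.2 and 10.6 normalized CPM in Adap-/- and 27.1 and 114 in WT (log2 fold change -2.75; -1.38 without WT mock replicate 2 and -3.46 without replicate 1). Serpina3g, a serine protease inhibitor of a large gene cluster, gave 31.6 and 21.2 normalized CPM in Adap-/- and 53.9 and 203 in WT (-2.28; -1.04 and -2.95). Calhm6, a channel protein of activated macrophages, gave 27.6 and 24.0 against 56.4 and 119 (-1.76; -1.13 without WT mock replicate 2). In each of the 3 genes WT mock replicate 2 was the highest library. Zinc finger protein 984 (ENSMUSG00000078495), of a repeated gene family, gave 7.44 and 0.572 normalized CPM in Adap-/- and 25.6 and 34.9 in WT, and its call (log2 fold change -2.94, adjusted p = 0.0052) was lost without Adap-/- mock replicate 2 (adjusted p = 0.0707; log2 fold change -2.02, and -5.62 without replicate 1).

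The remaining genes of the 15 that fell most had fewer reads. Gng11, a G protein gamma subunit, gave 12.4 and 10.3 against 24.4 and 43.1 (log2 fold change -1.57, adjusted p = 0.00138). Pa2g4, a growth-regulating RNA-binding protein, gave 4.03 and 6.01 against 14.5 and 15.5 (log2 fold change -1.56, adjusted p = 0.00285). Sh2d1b, the SLAM-family adapter EAT-2, gave 4.65 and 6.29 against 15.4 and 19.3 (log2 fold change -1.65, adjusted p = 0.0161), and of the fits without 1 library it was called only in that without WT mock replicate 1. A peak shared by Yjefn3, Tssk6 and Ndufa13 gave 5.58 and 3.15 against 10.5 and 10.8 (log2 fold change -1.29, adjusted p = 0.0265), and of the fits without 1 library was called only in that without Adap-/- mock replicate 1.

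The gene lists were read against the 17.3% of all genes called in either direction, with no test of a list. The genes of ADAP's own pathway, its binding partners and the machinery of integrin activation, mostly did not pass the test: of 17 tested, 3 were higher and 1 was lower, with a median log2 fold change of 0.13. Both large rises were integrin alpha chains. Itgal, the alpha chain of LFA-1, gave 158 and 179.9 normalized CPM in Adap-/- and 68.4 and 76.1 in WT (log2 fold change 1.23 ± 0.13 (SE), adjusted p = 1.98e-05). Itga4, the alpha chain of VLA-4, gave 48.0 and 55.8 normalized CPM in Adap-/- and 28.9 and 26.3 in WT (log2 fold change 0.91 ± 0.16 (SE), adjusted p = 0.00124). Neither gene overlapped between genotypes, which was so for every called gene. Rap1b, a GTPase that activates integrins, was lower (log2 fold change -0.49), but its call was lost without Adap-/- mock replicate 1 or WT mock replicate 2.

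The TLR4 and NF-kB list held 9 higher and 2 lower genes of 28 tested (median 0.20). Sensors and feedback inhibitors of the pathway were among those that rose. Tlr2, the receptor for bacterial lipoproteins, gave 826 and 998 normalized CPM in Adap-/- and 517 and 503 in WT (log2 fold change 0.84 ± 0.11 (SE), adjusted p = 0.000222). Tlr1, which pairs with it, gave 143 and 163 against 111 and 105 (log2 fold change 0.50, adjusted p = 0.006, not called without Adap-/- mock replicate 2). Tlr4, the receptor for LPS, stood at 68.8 and 62.3 against 62.7 and 60.9 (adjusted p = 0.689). Nfkbiz, a nuclear regulator of NF-kB, gave 83.3 and 94.7 normalized CPM in Adap-/- and 42.2 and 44.4 in WT (log2 fold change 1.04 ± 0.13 (SE), adjusted p = 0.000122). Irak3, an inhibitory kinase of the pathway, gave 249.7 and 288 normalized CPM in Adap-/- and 173 and 152 in WT (log2 fold change 0.72, adjusted p = 0.00062). Nfkbie, an inhibitor of NF-kB, gave 123 and 129.6 against 89.5 and 75.1 (log2 fold change 0.62, adjusted p = 0.00205). Tab1, a TAK1-binding adapter, and Ticam1, the adapter TRIF, were the 2 lower members, at 34.4 and 32.0 against 51.5 and 46.9 and 86.7 and 82.4 against 115 and 120.5. The call of Tab1 was lost without any 1 library, with DESeq2 and with total-count scaling, and that of Ticam1 without Adap-/- mock replicate 2 or WT mock replicate 2.

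Of 28 inflammatory cytokines and chemokines tested, 5 were higher and 3 were lower (median 0.22). Neutrophil-attracting chemokines showed the largest rise. Cxcl3 gave 31.9 and 45.2 normalized CPM in Adap-/- and 9.34 and 8.24 in WT (log2 fold change 2.13 ± 0.29 (SE), adjusted p = 0.000222). Cxcl2 gave 124 and 186 normalized CPM in Adap-/- and 68.1 and 75.4 in WT (log2 fold change 1.11 ± 0.24 (SE), adjusted p = 0.00473), a call lost without Adap-/- mock replicate 2 (adjusted p = 0.108). Ccl5, which attracts T cells and monocytes, gave 470.3 and 565 normalized CPM in Adap-/- and 294 and 223 in WT (log2 fold change 1.00 ± 0.15 (SE), adjusted p = 0.000356). Csf1, the macrophage growth factor, gave 143 and 114 against 77.8 and 76.1 (log2 fold change 0.74, adjusted p = 0.00109). Il1rn, the antagonist of the interleukin 1 receptor, fell the most: 145 and 163 normalized CPM in Adap-/- and 375 and 358 in WT (log2 fold change -1.25 ± 0.13 (SE), adjusted p = 1.53e-05). Spp1, osteopontin, was lower as well, at 114 and 113 against 150.4 and 204.15 (log2 fold change -0.64, adjusted p = 0.00332, not called without WT mock replicate 2). The classic products of activated macrophages did not pass the test in unstimulated cells: Tnf stood at 432 and 555 against 357 and 364 (adjusted p = 0.088) and Il1b at 12.4 and 15.4 against 13.3 and 10.8 (adjusted p = 0.741). Il6 stood at 0.620 and 1.14 against 2.71 and 0.951 (adjusted p = 0.515).

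Of 39 interferon-stimulated genes tested, more than in any other list written by hand, 13 were higher in Adap-/- and 1 was lower, with a median log2 fold change of 0.23, against 8.81% and 8.45% of all genes. Irf7, the transcription factor that amplifies type I interferon, was the most abundant of the 13, gave 1048 and 1045 normalized CPM in Adap-/- and 489 and 461 in WT and was higher at each of its 6 peaks (log2 fold change 1.14 ± 0.12 (SE), adjusted p = 2.30e-05). Rnf213, a large ubiquitin ligase, gave 880.2 and 865 normalized CPM in Adap-/- and 516 and 476 in WT and was higher at each of its 11 peaks (log2 fold change 0.81 ± 0.12 (SE), adjusted p = 0.000324). The cytosolic RNA sensors rose too: Ifih1 (MDA5) gave 53.0 and 46.3 against 25.6 and 27.3 (log2 fold change 0.91, adjusted p = 0.000417). Ddx58 (RIG-I) gave 39.0 and 33.7 against 19.6 and 20.6 (log2 fold change 0.85, adjusted p = 0.00126). Oasl1, a regulator of Irf7 translation, gave 141 and 136 against 85.3 and 70.4 (log2 fold change 0.83, adjusted p = 0.000507). Ifit3b, an antiviral RNA-binding protein whose near-identical neighbour Ifit3 can share its reads, gave 10.8 and 10.0 against 2.71 and 3.49 (log2 fold change 1.74, adjusted p = 0.00403).

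The other 7 of the 13, named after their values were seen, were Ifit1, Ifit3, Mx1, Oasl2, Samd9l, Slfn8 and Trim30a, with log2 fold changes from 0.39 (Slfn8) to 0.81 (Ifit3). The calls of Ifit1, Mx1, Slfn8 and Trim30a were lost without Adap-/- mock replicate 2, and those of Mx1, Slfn8 and Trim30a also without WT mock replicate 1. Slfn8 was not called without Adap-/- mock replicate 1 either. Among the members not called, Isg15, a ubiquitin-like protein, stood at 75.0 and 70.9 against 64.2 and 66.3 (adjusted p = 0.431), and Rsad2 (viperin) at 450.2 and 431 against 359 and 448 (adjusted p = 0.579). Gbp2 stood at 922 and 1049 against 807 and 1491 (adjusted p = 0.501). For Gbp2 and Rsad2, WT mock replicate 2 was above WT mock replicate 1 and the genotypes overlapped. The median of the list ranged from 0.18 to 0.34 in the fits without 1 library.

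**Figure D3:**
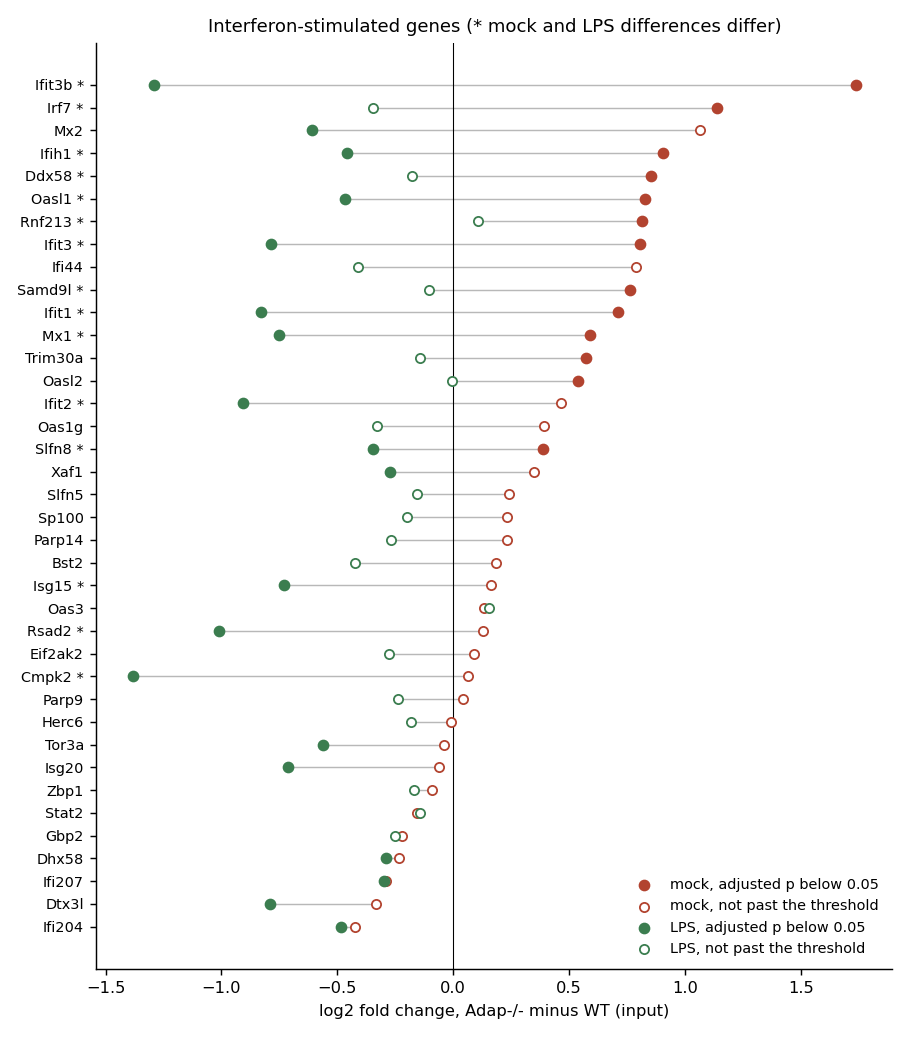
Log2 fold change, Adap-/- minus WT, of each of 38 interferon-stimulated genes in mock input (red) and LPS input (green) libraries. Filled points passed an adjusted p under 0.05 and open points did not. A star marks the 15 genes whose mock and LPS differences differed from each other, and 13 red points are filled, each on the right of 0. The 1 member called lower in mock is not drawn.

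Promoter sequence of the called members is shown because the interferon and NF-kB responses act through known short motifs. In RefSeq promoters (GRCm38.p6, 250 bases before each start), the interferon-response motif, searched as GAAA, any 2 bases and GAAA on either strand, matched in 5 of 12 of the higher interferon-stimulated genes with a promoter in the table and in 9 of 18 of those not called higher. It matched in 3.73% of all tested genes with a promoter (3188 of 4745) and 5.47% of all higher genes. Windows of 30 bases around a match in the Ifit cluster on chromosome 19, with the match in capitals, are these. They are written on the strand of the gene, and the match lies on the other strand, so the capitals are the reverse complement of the searched letters.
Ifit3b, chr19:34607759-34607788: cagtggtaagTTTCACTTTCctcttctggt
Ifit3, chr19:34583363-34583392: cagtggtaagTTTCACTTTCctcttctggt
Ifit1, chr19:34640775-34640804: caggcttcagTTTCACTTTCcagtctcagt
The windows of Ifit3b and Ifit3 have the same bases throughout. The kB motif was searched as GGG, any 2 bases and TTTCC on either strand. It matched in each of the 3 higher cytokine and chemokine genes with a promoter in the table (Cxcl2, Cxcl3 and Csf1). Of that list's genes not called higher it matched in 4 of 15. In the TLR4 and NF-kB list it matched in 2 of 7 higher genes and in 5 of 14 not called higher. Over all tested genes with a promoter the motif matched in 2.16%, in 3.28% of the higher and in 3.42% of the lower ones. The windows of Cxcl2 and Cxcl3 hold it on the strand of the gene.
Cxcl2, chr5:90903792-90903821: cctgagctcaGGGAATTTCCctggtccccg
Cxcl3, chr5:90786018-90786047: gagctgcgggGGGAATTTCCccagcccggg
A match describes the letters of the window and is no evidence of binding in these cells.

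Receptors for microbial and dead-cell ligands changed in both directions: of 21 phagocytic and scavenger receptors tested, 4 were higher and 6 were lower (median -0.11). Clec4e, the C-type lectin Mincle, was the most abundant gene to rise past 2-fold among those named, at 6517 and 8568 normalized CPM in Adap-/- and 3047 and 2468 in WT (log2 fold change 1.45 ± 0.16 (SE), adjusted p = 2.79e-05). Pilra, an inhibitory receptor, gave 322 and 409 normalized CPM in Adap-/- and 158 and 149.6 in WT (log2 fold change 1.25 ± 0.12 (SE), adjusted p = 1.04e-05). Olr1, the receptor for oxidized LDL, gave 45.2 and 74.1 against 34.4 and 13.3 (log2 fold change 1.32, adjusted p = 0.00691, not called without Adap-/- mock replicate 2 or WT mock replicate 2, nor with DESeq2; 2.16 without WT mock replicate 1 and 0.80 without WT mock replicate 2). On the other side, Fcgr4, an activating IgG receptor, gave 63.5 and 58.1 normalized CPM in Adap-/- and 109.7 and 158 in WT (log2 fold change -1.14 ± 0.16 (SE), adjusted p = 0.00034). C3ar1, the receptor for the complement fragment C3a, gave 1142 and 1034 against 1593 and 1761 (log2 fold change -0.62, adjusted p = 0.00103). Cd300lb, an activating receptor for dead cells, gave 1698 and 1612 normalized CPM in Adap-/- and 2424 and 2555 in WT (log2 fold change -0.59 ± 0.09 (SE), adjusted p = 0.00062), and each of its 4 peaks was lower.

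Of 16 transcripts of cytosolic ribosomal proteins tested, 0 were higher and 9 were lower, where 8.45% of all genes were lower. Every one of the 16 had a log2 fold change below 0, and the median was -0.60 (-0.74 to -0.38 in the fits without 1 library). Rpl27a gave 188 and 187 normalized CPM in Adap-/- and 298 and 305 in WT (log2 fold change -0.68 ± 0.13 (SE), adjusted p = 0.00187). Rps14 gave 31.6 and 41.5 normalized CPM in Adap-/- and 61.2 and 73.9 in WT (log2 fold change -0.88 ± 0.18 (SE), adjusted p = 0.0036). Rpl32 gave 204.48 and 232 against 307 and 375 (log2 fold change -0.64, adjusted p = 0.00175). Both WT libraries exceeded both Adap-/- libraries in these 3 genes, as in every gene called lower. Rpl23a (-1.15) and Rps20 (-1.01), which had the largest falls, were not called without WT mock replicate 2. Rpl23a was not called without Adap-/- mock replicate 2 either, nor Rps20 without Adap-/- mock replicate 1 or WT mock replicate 1 (log2 fold change of Rps20 -1.66 without Adap-/- mock replicate 2). The 33 tested genes that the table annotates to oxidative phosphorylation, a group chosen after its values were seen, held 10 lower and 0 higher genes (median -0.44). Uqcrh, a subunit of respiratory complex III, gave 90.2 and 90.1 against 160.0 and 193 (log2 fold change -0.97, adjusted p = 7.48e-05). Cox7a2l, which joins respiratory complexes, gave 433 and 438 against 616 and 703 (log2 fold change -0.60, adjusted p = 0.00108). Of 79 ribosomal protein genes listed, 16 had a peak, so most of that family was not analysed here.

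Of 28 lysosomal genes tested, 2 were higher and 5 were lower (median -0.18), against 8.81% and 8.45% of all genes. Ctsl, the cysteine protease cathepsin L, fell the most: 714 and 699.8 normalized CPM in Adap-/- and 1367 and 1811 in WT (log2 fold change -1.17 ± 0.12 (SE), adjusted p = 1.77e-05). Ctsd, the aspartic protease cathepsin D, gave 21386 and 20794 normalized CPM in Adap-/- and 27891 and 30597 in WT (log2 fold change -0.47 ± 0.12 (SE), adjusted p = 0.015), and this call was lost without either Adap-/- library. Of the 10 most abundant genes in WT, 3 were lower in Adap-/- and 0 were higher. Gpx1, a glutathione peroxidase, was lower at 82.1 and 70.6 against 116 and 140.1 (log2 fold change -0.74, adjusted p = 0.00109), and Slc7a11, the cystine transporter of the same NRF2 list, was higher at 65.7 and 88.7 against 38.9 and 27.3 (log2 fold change 1.22, adjusted p = 0.000605).

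Matrix and TGF-beta genes moved strongly in both directions, with 5 higher and 5 lower of 17 tested. Their median of 0.22 turned to -0.08 with a filter of 10 counts in each mock input library. Ltbp1, which anchors latent TGF-beta, rose as given above. Tgfbi, a TGF-beta-induced matrix protein, gave 64.8 and 75.2 normalized CPM in Adap-/- and 26.8 and 21.9 in WT (log2 fold change 1.52 ± 0.18 (SE), adjusted p = 7.48e-05). Mmp14, a membrane matrix metalloproteinase, gave 1761 and 1852 against 1214 and 1135 (log2 fold change 0.62, adjusted p = 0.00173). The lower members besides Mmp12 and Spp1 included Mmp19, at 120.2 and 119.5 against 215 and 183 (log2 fold change -0.73, adjusted p = 0.000997), Itgb5, an integrin beta chain, at 206.65 and 187 against 279 and 354, and Timp2, a metalloproteinase inhibitor, at 92.0 and 82.4 against 122 and 135 (not called without Adap-/- mock replicate 2).

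Of 10 tested markers of resident peritoneal macrophages 4 were higher and 0 were lower, and the median was 0.51 (0.44 to 0.55 in the fits without 1 library). Beside Prg4, Cd5l, a secreted scavenger-receptor protein, gave 286 and 337 normalized CPM in Adap-/- and 164 and 186 in WT (log2 fold change 0.83 ± 0.12 (SE), adjusted p = 0.000233). F10, coagulation factor X, gave 1119 and 1219 against 875 and 856 (log2 fold change 0.43, adjusted p = 0.0146). Saa3 gave 248 and 510.5 against 173 and 175 (log2 fold change 1.13, adjusted p = 0.00379; 0.51 without Adap-/- mock replicate 2), but both calls were lost without Adap-/- mock replicate 2. Bhlhe40, a transcription factor of these cells, stood at 1244 and 1199.7 against 1245 and 995 (adjusted p = 0.467), and defining markers such as Gata6 and Timd4 had no peak in the table. Among 9 tested markers of recruited monocytes and inflammatory macrophages, Ccr1, a chemokine receptor, was lower at 198 and 202 against 292 and 363 (log2 fold change -0.71, adjusted p = 0.000729), no gene was higher, and the summed level was 1835 and 1905 in Adap-/- against 1815 and 1960.1 in WT.

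Immediate-early genes split into 2 higher and 4 lower of 17 tested. Atf3, a stress-induced repressor of inflammatory genes, gave 1500.4 and 1463 normalized CPM in Adap-/- and 2452 and 2598 in WT (log2 fold change -0.77 ± 0.11 (SE), adjusted p = 0.00038), lower at all of its 3 peaks, and Jun, a subunit of AP-1, 479 and 488 against 694 and 606 (log2 fold change -0.43, adjusted p = 0.00545). Egr1 was higher at 108 and 81.2 against 58.5 and 68.8 (log2 fold change 0.57, adjusted p = 0.0125, not called without Adap-/- mock replicate 1 or WT mock replicate 1). Among 27 JAK-STAT and SOCS genes 3 were higher and 3 lower. Jak2, a kinase of cytokine receptors, gave 102 and 104 normalized CPM in Adap-/- and 62.4 and 63.7 in WT (log2 fold change 0.71 ± 0.11 (SE), adjusted p = 0.000401). Of 9 ABC transporters tested, 3 were higher and 1 was lower: Abcc1, an exporter of glutathione conjugates, gave 486 and 564 against 346 and 301 (log2 fold change 0.70, adjusted p = 0.00091). Abca1, the cholesterol exporter, gave 383 and 365 against 247 and 234 (log2 fold change 0.64, adjusted p = 0.000727). The list of actin regulators and small GTPases, close to ADAP's known role, held 2 higher and 3 lower genes of 32 tested (median -0.12): Rhoh, a GTPase of blood cells, gave 27.3 and 20.6 normalized CPM in Adap-/- and 53.9 and 57.4 in WT (log2 fold change -1.22 ± 0.17 (SE), adjusted p = 0.0003). Rhob gave 915 and 848 against 1442 and 1523 (log2 fold change -0.75, adjusted p = 0.000363).

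The remaining lists had 7 to 20 tested genes each. The M1 polarization markers held 2 higher and 2 lower genes of 12 tested. Their median of -0.06 became 0.27 without WT mock replicate 2. Fpr2 and Slc7a2, an arginine transporter at 99.5 and 116 against 71.4 and 52.3 (not called without Adap-/- mock replicate 2), were the higher ones. Irf1 and Irf5, at 476 and 445 against 539.8 and 611, were the lower ones, and of the fits without 1 library both were called only in that without WT mock replicate 1. Of 7 M2 polarization markers Pparg, a nuclear receptor, was lower at 62.0 and 46.3 against 93.4 and 84.3 (log2 fold change -0.72, adjusted p = 0.00599, not called without Adap-/- mock replicate 2). Among 12 m6A regulators Ythdf3, an m6A reader, was higher at 269 and 293 against 207.04 and 209 (log2 fold change 0.43, adjusted p = 0.00537, not called without Adap-/- mock replicate 2). Glycolysis and hypoxia genes held 3 higher and 1 lower of 12, with Slc2a6, a hexose transporter, at 357 and 384 against 208 and 208 (log2 fold change 0.83, adjusted p = 0.000122). Cell cycle genes held 2 higher and 2 lower of 7, with a median of -0.34. Mki67, a marker of dividing cells, was higher at 44.6 and 55.5 against 24.1 and 20.6 (log2 fold change 1.16, adjusted p = 0.00238), as was Mcm3. Tpx2 was lower at 18.3 and 10.9 against 28.3 and 33.9 (log2 fold change -0.77 without Adap-/- mock replicate 2 and -0.96 without WT mock replicate 2). Cdk4 was lower too (log2 fold change -0.31 and -0.37 in the same fits), and both calls rested on these libraries. Sprouty and receptor tyrosine kinase feedback genes held 2 and 2 of 19, integrated stress response genes 1 and 1 of 20, and antigen presentation (11 tested) and cholesterol genes (7 tested) 0 and 0. Complement and coagulation genes held 3 higher and 2 lower of 13, Cfb among them.

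**Figure D4:**
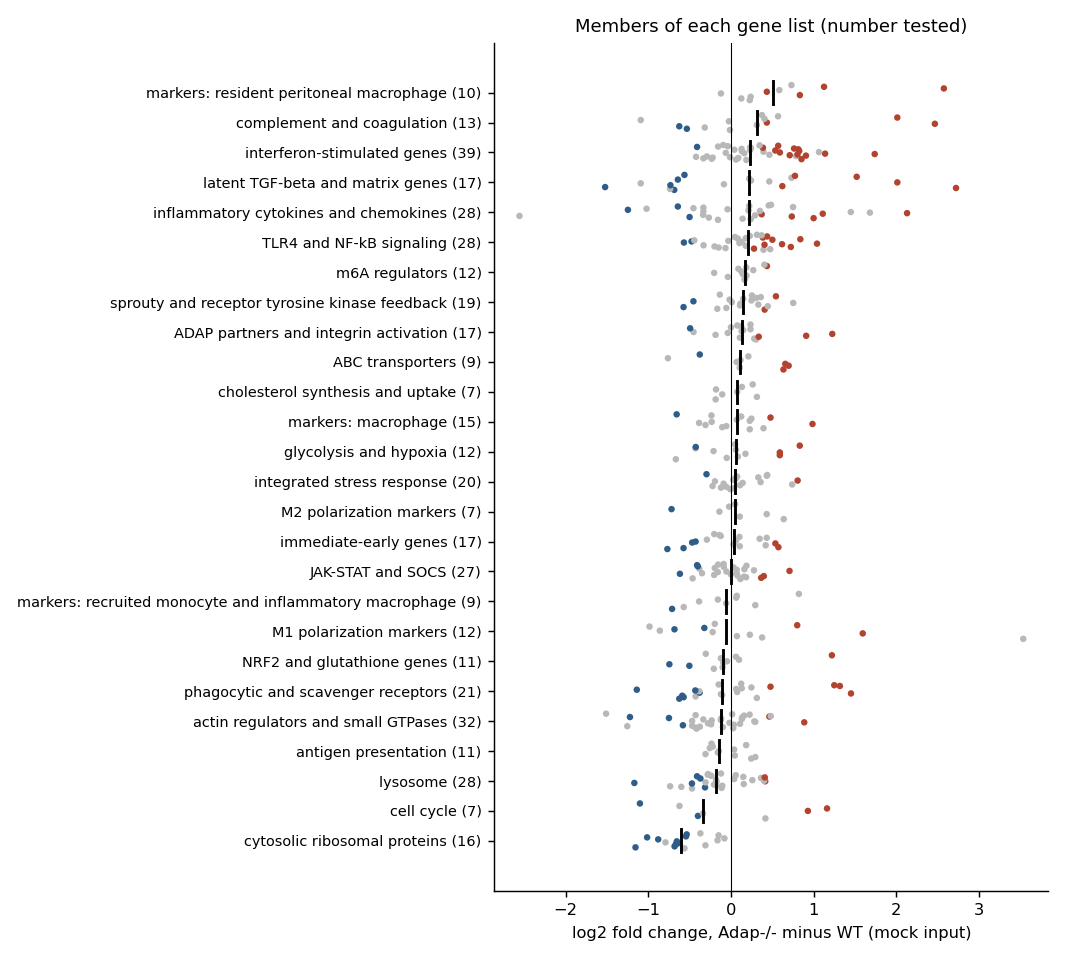
Each dot is a tested member of a gene list (rows, number tested in parentheses) at its log2 fold change, Adap-/- minus WT, in mock input. Red dots are called higher, blue lower and grey neither, and bars are list medians. The medians run from -0.60 for cytosolic ribosomal proteins to 0.51 for resident peritoneal macrophage markers.

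Of the genes the study followed for other reasons, Pou3f1, a POU-domain factor, stood at 2.48 and 3.43 against 6.93 and 7.61 normalized CPM (adjusted p = 0.051), and Cish, a suppressor of cytokine signaling, at 0.310 and 3.15 against 2.41 and 2.54 (adjusted p = 0.719). Spry1, an inhibitor of receptor tyrosine kinase signaling, stood at 0.929 and 0.572 against 1.21 and 0 (adjusted p = 0.898). Spry1 had at most 4 reads in a library and Cish at most 11, so a difference in them was not detectable at this depth.

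Genes beside a targeted locus are inherited with it, so the genes within 20 Mb of Fyb1 on chromosome 15 were listed. Of 19 tested besides Fyb1, 3 were higher and 4 were lower, against 8.81% and 8.45% of all genes, and the median was 0.06. Rai14, an actin-associated protein, gave 262 and 256 normalized CPM in Adap-/- and 181 and 183 in WT (log2 fold change 0.51 ± 0.09 (SE), adjusted p = 0.00153). Nipbl, a cohesin loader, gave 90.5 and 109 against 59.7 and 70.7 (log2 fold change 0.61, adjusted p = 0.00383, not called without Adap-/- mock replicate 2). Rictor, a subunit of mTORC2, gave 38.7 and 44.9 against 30.7 and 19.3 (log2 fold change 0.74, adjusted p = 0.0142, not called without Adap-/- mock replicate 2 or WT mock replicate 2). The lower genes were Il7r, the interleukin 7 receptor, at 1988 and 1799 against 2417 and 2452, ENSMUSG00000045763 at 789.7 and 704 against 1078 and 1161, and Ccdc152 with ENSMUSG00000064373 on shared peaks at 166 and 145 against 239 and 387. The call of Il7r was lost without either Adap-/- library and with total-count scaling.

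The genotype difference in unstimulated PMs was then set beside that after LPS, which used other libraries. After LPS 314 genes were higher (6.62%) and 425 lower (8.96%) in Adap-/-. Of the 418 genes higher in mock, 361 (86.4%) had the same sign after LPS, 146 were called in the same direction and 9 in the opposite one. Of the 401 lower genes 374 (93.3%) had the same sign, 175 were called in the same direction and 2 in the opposite one. Over all genes 68.7% had the same sign. Fyb1 was low in both conditions, with 48.8 and 41.7 in Adap-/- and 404 and 436 in WT after LPS. Pdpn kept its difference, at 489.9 and 438 in Adap-/- and 1660.1 and 1790.3 in WT (log2 fold change -1.89), as did Prg4 (log2 fold change 2.41, adjusted p = 0.000303).

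A test of the difference between the 2 genotype effects called 74 genes (1.56%): in 55 the Adap-/- minus WT difference was more positive in mock than after LPS (1.16%), and in 19 it was more negative (0.4%). Of the 55, 40 were among the genes higher in mock, against 8.81% of all genes. The tested value contains the mock difference, so this overlap is partly built in and gives no support. Interferon-stimulated genes made up 15 of the 74. Ifit3b, higher in Adap-/- in mock, was lower after LPS, at 503 and 362 in Adap-/- and 1106 and 1012 in WT (log2 fold change -1.29, adjusted p = 1.01e-05; difference of the effects 3.03 ± 0.38, SE, adjusted p = 0.000438). Irf7 stood at 12160.0 and 10577 in Adap-/- and 14571 and 14350.0 in WT after LPS (log2 fold change -0.35, adjusted p = 0.0547). Its 2 effects differed by 1.49 ± 0.17 (SE, adjusted p = 0.000267). Cmpk2, a mitochondrial nucleotide kinase of the interferon response chosen after its values were seen, had overlapping mock libraries (140.0 and 114 against 105 and 138) and after LPS 10545 and 10508 in Adap-/- and 27355 and 27558 in WT (log2 fold change -1.38).

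For other genes a rise in mock was smaller after LPS. Cfb stood at 1482 and 1565 in Adap-/- and 1016 and 919 in WT after LPS (log2 fold change 0.65; difference of the effects 1.81, adjusted p = 0.000267), and Clec4e at 28929 and 30096 in Adap-/- and 28346 and 24884 in WT (log2 fold change 0.15; difference 1.30, adjusted p = 0.00505). Fpr1 remained higher after LPS by 1.31, with a difference of 0.93 (adjusted p = 0.00959). In the other direction, Pa2g4 was lower in mock but not after LPS (log2 fold change 0.50, adjusted p = 0.383; difference -2.06, adjusted p = 0.0365). The 55 and 19 genes became 24 and 5 without Adap-/- mock replicate 2, 42 and 6 without Adap-/- mock replicate 1, 86 and 40 without WT mock replicate 1, and 72 and 18 without WT mock replicate 2.

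**Figure D5:**
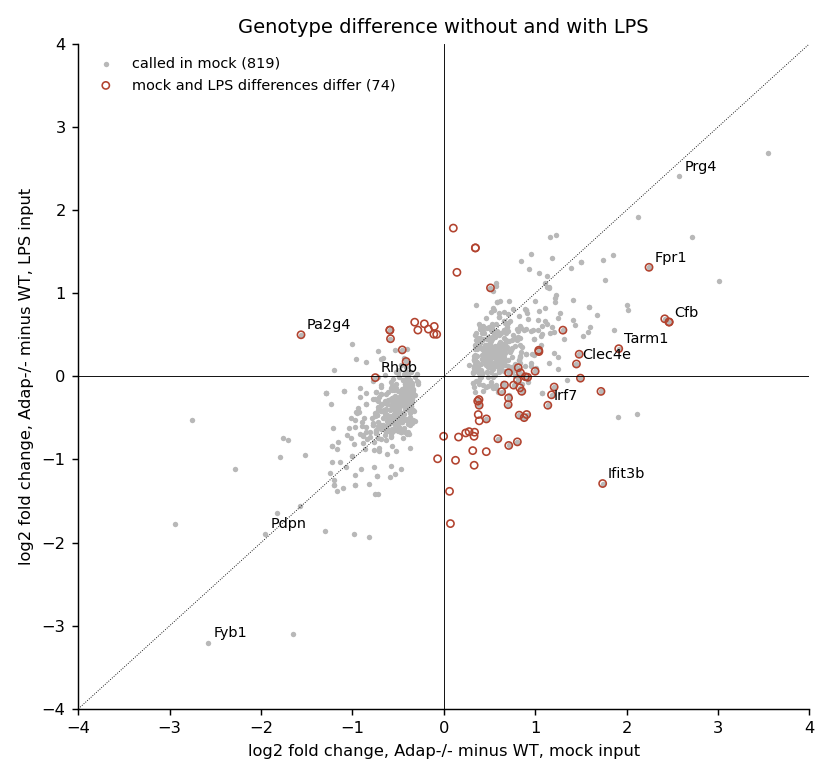
Log2 fold change, Adap-/- minus WT, in mock input (x) against LPS input (y) for the 819 genes called in mock (grey) and the 74 genes whose 2 differences differed (red rings). The dotted line marks equal values. Pdpn and Prg4 lie near the line, and Fyb1 lies below 0 on both axes. Ifit3b and Irf7 lie below 0 after LPS, and the peak of ENSMUSG00000059040 and ENSMUSG00000118267, at 8.67 and 7.43, is off the axes.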

How the data were processed

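PMs were profiled by MeRIP-seq. The authors deposited 1 table with raw read counts of every library on annotated m6A peaks (build GRCm39; Bowtie2 2.2.8, MACS2 2.1.2 and DiffBind 2.8 are named in the submitters' processing notes, without roles). Whether counting used strand, and the annotation release, are not given in the sources used here. Its columns of the authors' comparisons (fold changes and p-values) were not used. The 8094 lines were reduced to 7069 distinct peaks, and input counts were summed over the peaks of each gene ID; a peak of several genes counted for each (1330 genes share a peak, 1151 have only shared peaks). Symbols shared by several IDs, blank or contradicted by the table's description were replaced by the ID. Counts on peaks follow which regions were called, so a gene's value may rest on a small part of its transcript.

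The 8 input libraries were fitted with edgeR 4.0.16 (R 4.3.3; TMM, library size as reads on peaks, filterByExpr with a minimum count of 10 and total of 15, quasi-likelihood F test, 1 mean per group), and p-values were adjusted over all 4745 genes. SE is the log2 fold change divided by the square root of F. The biological coefficient of variation was 8.79%. The code was tested on simulated data. Named genes were Fyb1, the 15 higher and 15 lower genes with the largest log2 fold change among those with an adjusted p under 0.05, no overlap of replicates and a mean of at least 5 normalized CPM, up to 6 examples per list (called members by size, otherwise the most abundant), and genes the study followed. A few genes that meet these rules are not reported here by name, though list counts include them. The members and lists were chosen with earlier results of these data known. Promoter windows came from RefSeq (GRCm38.p6), matched by symbol. Alternatives were DESeq2 1.42.0, other scalings and filters, the replicate block, the mock libraries alone, other treatments of shared peaks, and leaving out each mock input library.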

Additional observations from a re-analysis of the deposited data

Results flagged for a closer look

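The genotype difference in unstimulated PMs differed from that after LPS in 29 of the 184 named genes, against 1.56% of all genes. The edgeR test of the difference itself was used (adjusted p under 0.05), and genes on the same peaks are counted each. Many named genes were chosen by their mock values, some after values were seen. This favours such a difference, so the 29 give no support beyond the test over all genes. The values are the Adap-/- minus WT log2 fold change in mock minus that after LPS. Among interferon-stimulated genes it was 3.03 for Ifit3b, 1.59 for Ifit3, 1.54 for Ifit1, 1.49 for Irf7, 1.45 for Cmpk2, 1.37 for Ifih1, 1.34 for Mx1, 1.29 for Oasl1, 1.14 for Rsad2, 1.03 for Ddx58, 0.89 for Isg15, 0.87 for Samd9l, 0.73 for Slfn8 and 0.71 for Rnf213; Ifit3b, Ifit3, Ifit1, Mx1, Ifih1, Oasl1 and Slfn8 were called higher in Adap-/- in mock and lower after LPS. Cmpk2, Rsad2 and Isg15 were not called in mock and were lower after LPS.

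Among the other genes it was 1.81 for Cfb and ENSMUSG00000092511, which share their peaks, 1.73 for schlafen 4 (ENSMUSG00000000204), 1.58 for Tarm1, 1.30 for Clec4e, 0.97 for Slc2a6, 0.94 for Ccl5, 0.93 for Fpr1, 0.85 for Nupr1, a stress-induced nuclear protein, 0.80 for Tlr2, 0.74 for Nfkbiz and 0.66 for Jak2. It was below 0 for Pa2g4 (-2.06), Rhob (-0.73) and Rai14 (-0.55). With 2 libraries a group, no test for a single outlying library was made.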

How the results depend on the processing

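Of 10 alternatives that kept all libraries or tested features another way, none called a gene in the opposite direction to the reported one. DESeq2 called 294 genes higher and 264 lower (290 and 263 shared with the reported calls), 19 lower genes past 2-fold in place of 42, and 89 and 11 genes in the test against the LPS difference in place of 55 and 19. The other counts stayed within 1.5 times the reported ones: 325 to 517 higher, 308 to 402 lower. Over the fits that left out 1 mock input library, the counts ranged from 160 to 423 higher, 148 to 458 lower, 52 to 96 higher and 20 to 78 lower past 2-fold, 87 to 131 and 46 to 111 past 2-fold at an unadjusted p, and 24 to 86 and 5 to 40 in the test against the LPS difference; the lone replicate of a genotype was then assumed to vary like the other groups. Of 153 named genes that were called, 71 lost the call in at least 1 of these 4 fits, 64 of them without Adap-/- mock replicate 2.

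The labels do not say whether the replicate numbers pair the samples. The correlation of replicate differences was -0.086 between the mock groups and -0.086 to 0.161 over all pairs of groups. Between mock and LPS of the same genotype it was 0.161 in Adap-/- and 0.042 in WT. With 1 difference per group it cannot decide whether samples were paired. With the replicate block, 405 genes were higher and 387 lower, 76 and 39 of them past 2-fold, and 4 of the 153 named calls were lost. The median of the cell cycle genes, -0.34, became 0.02 with only peaks of 1 gene. Medians nearer to 0 changed sign under some settings, those of JAK-STAT, cholesterol, glycolysis and antigen presentation genes among them.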
